A study of Mus musculus with 24 samples.

Results

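The genes described here are 9 of the 24594 genes in the counts table: 4 genes of the endocytic machinery of visceral endoderm (Cubn, Amn, Lrp2 and Dab2) and 5 genes for carrier proteins that this tissue secretes (Ttr, Afp, Apoe, Apoa1 and Apob). They were taken by symbol from a list of visceral endoderm functions, and the list was chosen by fold changes of the deletion lines over WT that were already known, so that their changes and calls are given as a description, not as evidence, and without P values. RNA was sequenced from mouse embryonic stem cells (mESCs) of the 129S6/SvEvTac background, grown in serum with LIF on gelatin, in which 1 regulatory subunit of an ISWI chromatin remodeller had been deleted with CRISPR–Cas9. The 24 libraries fell into 5 batches, each with WT libraries of its own. Batch A held 2 WT, 2 Rsf1Δ and 2 WstfΔ (Baz1b) libraries, batch B held 2 WT and 2 Tip5Δ (Baz2a) libraries, batch C held 2 WT and 2 BptfΔ libraries, batch D held 3 WT and 3 libraries labelled Cecr2Δ, and batch E held 2 WT and 2 Acf1Δ (Baz1a) libraries. Each genotype was represented by 1 selected clone, so that a genotype and its clone cannot be told apart.

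Visceral endoderm is the outer epithelium of the early embryo, which feeds the embryo before a placenta forms. Its cells take up maternal proteins and lipids at the apical surface: CUBN (cubilin) has no membrane anchor of its own and reaches the surface only with AMN (amnionless), LRP2 (megalin) is a giant receptor of the LDL receptor family that works together with both, and DAB2 is the adaptor that links the tails of such receptors to clathrin. The same cells make plasma proteins ahead of the liver, among them transthyretin (Ttr), which carries thyroid hormone and retinol-binding protein, alpha-fetoprotein (Afp), and the lipoprotein proteins Apoe, Apoa1 and Apob. Cultures of mESCs in serum hold some cells that resemble primitive endoderm, the precursor of visceral endoderm. In these bulk libraries, fewer cells of a type and less RNA per cell cannot be told apart.

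Total counts ran from 13.4 M to 36.7 M per library (median 25.0 M), and levels are given as normalized CPM, that is counts per 1e6 after division by the library total times its TMM factor. The deleted gene's own mRNA was lower in Rsf1Δ, Acf1Δ, WstfΔ and BptfΔ, by 1.72 to 2.40 on the log2 scale, whereas Baz2a in Tip5Δ (log2 fold change −0.26) and Cecr2 in the Cecr2Δ-labelled libraries (0.37) did not pass the threshold, so that mRNA levels give no check of these 2 labels. In BptfΔ, the mRNAs of 2 other deleted subunits, Baz1a (−1.74) and Cecr2 (−1.56), were also called lower. Batch C stood apart: 60 replication-dependent histone genes, whose mRNAs lack a poly(A) tail, took 0.444 to 0.624% of the counts in its 4 libraries and 0.0020 to 0.0044% in the other 20, in WT and BptfΔ libraries alike. Defining markers of pluripotent cells were present in every library, with summed CPM of 8 genes between 3668.7 and 5440.2.

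The promoters of the 4 endocytosis genes are shown because these genes moved together in several lines. Each line holds 300 bases from RefSeq (build GRCm38.p6), 250 before to 50 after a transcript start, read 5′ to 3′ on the gene's strand, and the capitals mark CpG dinucleotides. Cubn lies at chr2:13491827-13492126 (minus strand), Amn at chr12:111270846-111271145 (plus strand), Lrp2 at chr2:69585980-69586279 (minus strand), and the 2 listed Dab2 starts at chr15:6299539-6299838 and chr15:6386498-6386797 (plus strand).
Cubn: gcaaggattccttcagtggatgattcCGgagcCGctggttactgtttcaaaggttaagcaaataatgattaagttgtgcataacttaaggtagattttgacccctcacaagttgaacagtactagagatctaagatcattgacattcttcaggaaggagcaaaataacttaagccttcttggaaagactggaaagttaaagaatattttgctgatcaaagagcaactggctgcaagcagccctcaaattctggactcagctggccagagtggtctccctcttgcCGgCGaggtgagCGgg
Amn: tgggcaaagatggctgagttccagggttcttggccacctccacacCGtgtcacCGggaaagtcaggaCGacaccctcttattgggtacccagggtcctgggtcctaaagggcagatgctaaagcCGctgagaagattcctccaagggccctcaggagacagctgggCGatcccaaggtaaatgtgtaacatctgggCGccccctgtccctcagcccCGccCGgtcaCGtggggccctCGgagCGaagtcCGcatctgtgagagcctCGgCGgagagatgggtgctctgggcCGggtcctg
Lrp2: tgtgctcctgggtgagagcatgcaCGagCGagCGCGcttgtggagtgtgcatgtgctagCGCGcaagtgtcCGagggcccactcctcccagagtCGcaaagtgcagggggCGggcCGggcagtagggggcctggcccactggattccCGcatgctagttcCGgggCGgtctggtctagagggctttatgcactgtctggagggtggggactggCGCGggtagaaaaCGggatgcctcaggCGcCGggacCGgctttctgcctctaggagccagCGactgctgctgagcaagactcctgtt
Dab2 start 1: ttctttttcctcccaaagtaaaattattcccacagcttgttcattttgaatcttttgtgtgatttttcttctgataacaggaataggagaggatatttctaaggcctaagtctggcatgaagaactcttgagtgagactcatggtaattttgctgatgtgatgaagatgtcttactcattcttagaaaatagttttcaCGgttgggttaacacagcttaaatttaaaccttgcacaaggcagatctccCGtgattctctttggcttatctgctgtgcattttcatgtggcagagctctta
Dab2 start 2: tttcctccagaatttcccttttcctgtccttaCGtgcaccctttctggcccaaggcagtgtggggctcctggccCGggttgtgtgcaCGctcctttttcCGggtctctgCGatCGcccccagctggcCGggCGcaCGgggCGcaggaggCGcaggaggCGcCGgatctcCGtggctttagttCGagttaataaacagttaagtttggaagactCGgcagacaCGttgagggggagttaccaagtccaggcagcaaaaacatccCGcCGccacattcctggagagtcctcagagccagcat

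The windows differed in CpG content. The Cubn promoter held 5 CpG dinucleotides, the Amn promoter 15, the Lrp2 promoter 20, and the Dab2 starts 2 and 19, against a median of 7 over the 32851 promoters of this length in the RefSeq table. On both strands, the letters AGATAA or TGATAA, read by GATA factors, occurred at 2 places at the upstream Dab2 start, at positions 72 and 265 of the printed window, and in none of the other 4 windows; 18.6% of all promoters held at least 1 match. A missing match says only that these letters were not in this window.

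Levels in WT cells ordered the genes as follows, per kb of annotated exon length and as mean ± SD over the 11 WT libraries. Apoe was by far the most abundant, at 189 ± 62 CPM per kb. Lrp2 (9.15 ± 5.3) and Dab2 (8.91 ± 4.6) did not differ beyond their spread, and Cubn (4.52 ± 2.7) and Amn (2.74 ± 1.3) came below them with overlapping ranges. Apob was at 0.121 ± 0.054. Apoa1, Ttr and Afp were at or near 0. The 4 endocytosis genes varied widely between the WT cells of different batches: the highest batch mean exceeded the lowest 5.44-fold for Cubn, 3.62-fold for Amn, 4.13-fold for Lrp2 and 4.24-fold for Dab2, with batch D the lowest for each of them. For Apoe the corresponding ratio was 2.04. The fold changes of each line were therefore taken only over the WT libraries of its own batch. Ranges over all 11 WT libraries and ranks of groups across batches are descriptions that include the differences between batches.

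Across the lines, the 4 endocytosis genes were called lower (more than 1 unit below WT on the log2 scale with an adjusted P under 0.01) in 4 of 4 cases in Rsf1Δ, 3 of 4 in Tip5Δ, 1 of 4 in the Cecr2Δ-labelled libraries, none in Acf1Δ, none in WstfΔ and 4 of 4 in BptfΔ. The Rsf1Δ count was 2 without WT replicate 2 of batch A, the Cecr2Δ count 0 without WT replicate 3 or Cecr2Δ replicate 3 of batch D, and the WstfΔ count 1 without WT replicate 1 of batch A. Neither of the 2 tested carriers (Apoe and Apob) was called in any line, and no member was called higher. For comparison, the share of all 15682 tested genes called lower was 5.26% in Rsf1Δ, 2.63% in Tip5Δ, 2.33% in the Cecr2Δ-labelled libraries, 3.32% in Acf1Δ, 6.57% in WstfΔ and 8.59% in BptfΔ. The share called higher was 0.65% in Rsf1Δ, 0.0829% in Tip5Δ, 0.784% in the Cecr2Δ-labelled libraries, 1.14% in Acf1Δ, 3.87% in WstfΔ and 5.25% in BptfΔ. The rule used these contrasts, and nothing is read from the members' counts against the background. The median log2 fold change of the 4 endocytosis genes was −1.22 in Rsf1Δ, −2.04 in Tip5Δ, −0.82 in the Cecr2Δ-labelled libraries, 0.16 in Acf1Δ, −0.48 in WstfΔ and −5.21 in BptfΔ, where the median over all tested genes lay between −0.03 and 0.01. The Rsf1Δ and WstfΔ comparisons share the WT libraries of batch A.

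**Figure D1:**
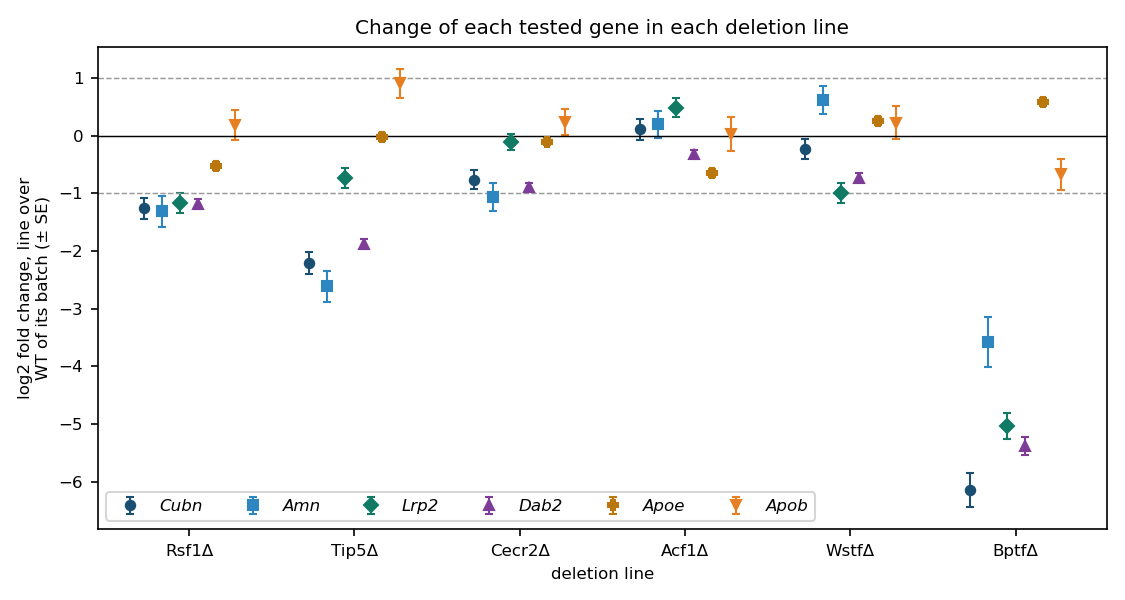
Log2 fold change of the 6 tested genes in each deletion line over the WT libraries of its batch (points, ± SE of the fit; dashed lines at 1 unit above and below 0). In BptfΔ the 4 endocytosis genes lie between −6.14 and −3.58, while Apoe and Apob stay within 1 unit of 0 in every line.

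Cubn, the ligand-binding receptor, had its lowest level in BptfΔ. In batch C, Cubn was at 90.1 and 114 CPM in WT and at 1.56 and 1.33 CPM in BptfΔ (26 and 23 counts). Both BptfΔ libraries lay below every one of the 11 WT libraries, with a log2 fold change of −6.14 ± 0.30 (SE), a 70.4-fold difference. In batch B, Cubn was at 104 and 91.0 CPM in WT and at 21.6 and 20.8 CPM in Tip5Δ, a log2 fold change of −2.20 ± 0.19. In batch A, the WT libraries were at 77.5 and 121 CPM, the Rsf1Δ libraries at 40.1 and 42.8 CPM and the WstfΔ libraries at 78.7 and 90.4 CPM. Rsf1Δ lay below both WT libraries (−1.26 ± 0.18), while WstfΔ lay inside their range (−0.23 ± 0.18). The Rsf1Δ call was lost without WT replicate 2 of batch A (−0.90). In batch D, Cubn was at 15.9, 21.5 and 18.7 CPM in WT and at 11.7, 11.6 and 9.82 CPM in the Cecr2Δ-labelled libraries. These groups did not overlap, but the difference (−0.76 ± 0.17) stayed under the 1-unit threshold. The Cecr2Δ-labelled libraries also lay below all 11 WT libraries. In batch E, the WT libraries (37.8 and 52.5 CPM) and the Acf1Δ libraries (59.6 and 38.2 CPM) overlapped (0.11 ± 0.18). The Tip5Δ level overlapped that of WT cells of batch D, so that Cubn levels in Tip5Δ were within the range seen over all WT libraries.

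Amn, the membrane partner of CUBN, followed Cubn in most lines, on lower counts. BptfΔ libraries held 0.599 and 0.231 CPM of Amn (10 and 4 counts) against 5.30 and 4.61 CPM in WT, a log2 fold change of −3.58 ± 0.43. Tip5Δ libraries held 1.05 and 1.87 CPM against 9.16 and 8.82 CPM, a log2 fold change of −2.61 ± 0.27. Both lines lay below all 11 WT libraries, and so did the Cecr2Δ-labelled libraries. Rsf1Δ libraries held 2.49 and 1.75 CPM of Amn against 5.34 and 5.12 CPM in WT (−1.31 ± 0.27), a call that was lost without Rsf1Δ replicate 2 (−1.07). The Cecr2Δ-labelled libraries held 1.49, 1.23 and 0.893 CPM against 2.13, 2.21 and 3.11 CPM in WT (−1.06 ± 0.25), and Amn was their single called member. That call was lost without WT replicate 3 of batch D (−0.87) and without Cecr2Δ replicate 3 (−0.87). WstfΔ was the exception in direction: its libraries, at 6.57 and 9.51 CPM, lay above both WT libraries of batch A, although the difference (0.62 ± 0.24) was not called and was 0.33 without WstfΔ replicate 2. Acf1Δ libraries (5.11 and 5.93 CPM) lay inside the range of their WT libraries (3.54 and 6.11 CPM).

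Lrp2, the large receptor beside CUBN, showed a different order of lines. Batch C held Lrp2 at 262 and 311 CPM in its WT cells and at 9.34 and 8.20 CPM after Bptf deletion, a log2 fold change of −5.03 ± 0.23 and a 32.7-fold difference. BptfΔ lay below all 11 WT libraries. In batch A, Lrp2 was at 150.2 and 259.5 CPM in WT, at 83.6 and 97.9 CPM in Rsf1Δ and at 103 and 103 CPM in WstfΔ. Rsf1Δ was called lower (−1.17 ± 0.17), and WstfΔ was not (−0.99 ± 0.18). These values rested on the WT pair, whose replicates differed by 0.79 on the log2 scale: without WT replicate 2 the Rsf1Δ difference was −0.73 and the WstfΔ difference −0.54, and without WT replicate 1 the WstfΔ difference was −1.33 and was called. In Tip5Δ, Lrp2 was at 93.1 and 99.4 CPM against 167 and 153 CPM in WT, a smaller difference (−0.73 ± 0.17) than those of Cubn, Amn and Dab2 in the same libraries, which was not tested between genes. The Cecr2Δ-labelled libraries (62.3, 61.8 and 68.5 CPM) overlapped their WT libraries (66.8, 75.2 and 66.2 CPM), and so did Acf1Δ (142 and 97.3 CPM against 70.5 and 100.1 CPM).

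Dab2, the clathrin adaptor, had the smallest SE of the 4 endocytosis genes in every line. BptfΔ libraries held 1.02 and 0.982 CPM (17 counts each) against 41.2 and 42.5 CPM in WT, a log2 fold change of −5.38 ± 0.16 and a 41.7-fold difference. Tip5Δ libraries held 26.0 and 25.4 CPM against 98.5 and 91.1 CPM (−1.88 ± 0.086). Rsf1Δ libraries held 45.4 and 44.2 CPM and WstfΔ libraries 60.5 and 61.4 CPM, against 100.5 and 102 CPM in batch A WT. Both lines lay below their WT, but Rsf1Δ was called (−1.18 ± 0.082) and WstfΔ was not (−0.73 ± 0.083). The Cecr2Δ-labelled libraries held 12.8, 14.2 and 11.9 CPM against 23.6, 26.8 and 21.4 CPM, below all 11 WT libraries without being called (−0.89 ± 0.076). Dab2 was the only one of the 4 endocytosis genes for which both Acf1Δ libraries (72.2 and 65.4 CPM) lay below their WT libraries (89.6 and 81.7 CPM), by 0.32 ± 0.080 on the log2 scale. Dab2 was thus below its own WT libraries in all 6 lines.

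**Figure D2:**
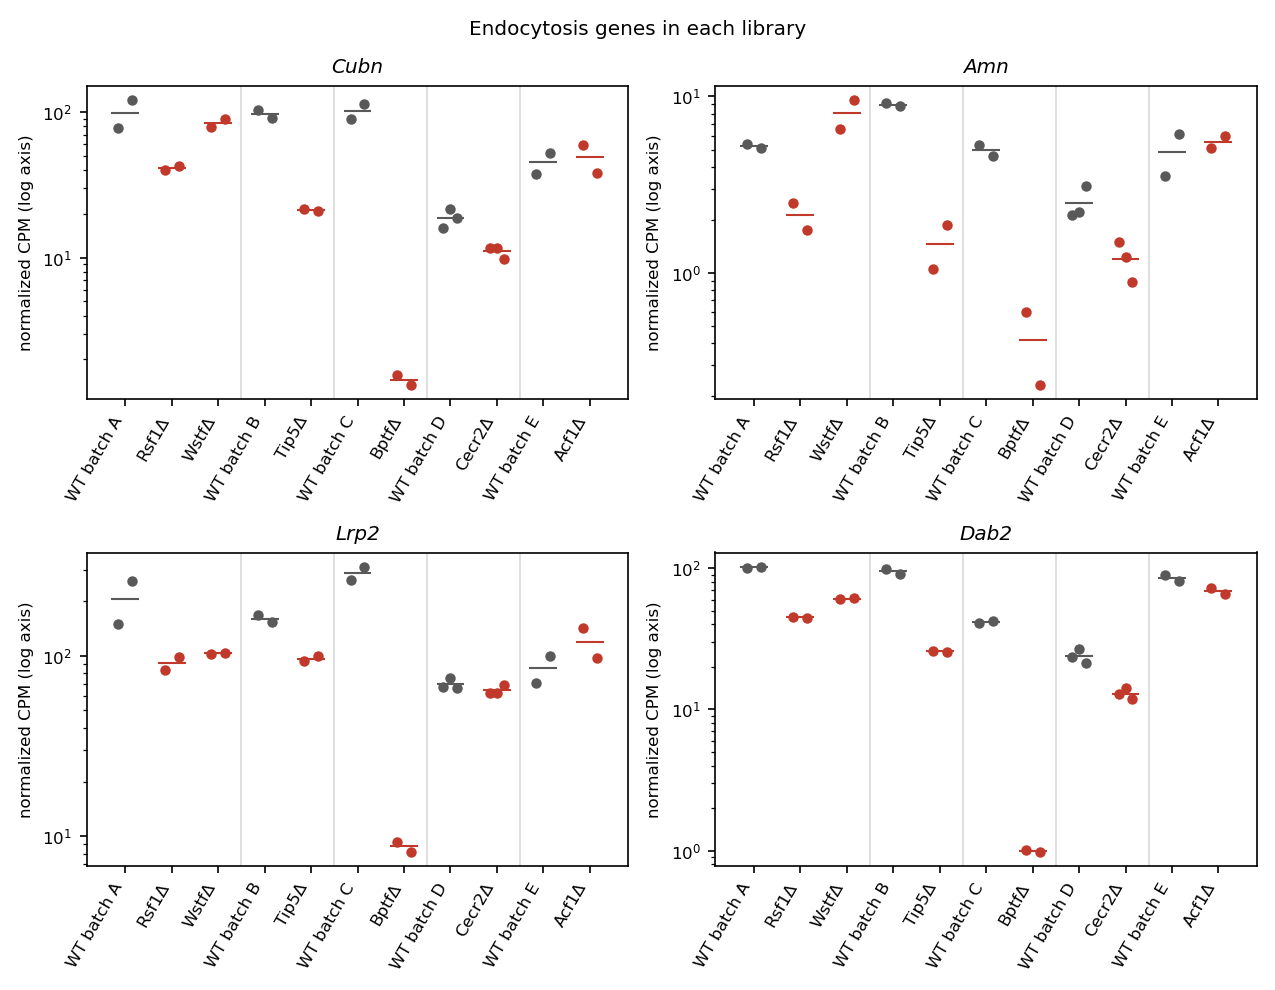
Normalized CPM (log axis) of Cubn, Amn, Lrp2 and Dab2 in each of the 24 libraries, with WT libraries in grey, deletion lines in red, group means as bars and batches parted by vertical lines. The BptfΔ libraries are the lowest in each panel, and the WT libraries of batch D have the lowest WT mean in each panel.

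Ranked by group mean, Cubn, Amn, Lrp2 and Dab2 did not part cleanly into WT and deletion lines. For Cubn, the WT groups of batches C, A and B (102, 99.1 and 97.4 CPM) overlapped, WstfΔ followed (84.6 CPM) with libraries inside the range of WT of batch A and overlapping WT of batch C, and Acf1Δ, WT of batch E and Rsf1Δ (48.9, 45.1 and 41.5 CPM) each overlapped the next. Tip5Δ and WT of batch D (21.2 and 18.7 CPM) overlapped, and Cecr2Δ (11.05 CPM) and BptfΔ (1.44 CPM) came last without overlap. For Amn, WT of batch B and WstfΔ led with overlap (8.99 and 8.04 CPM), and WT of batch D, Rsf1Δ, Tip5Δ and Cecr2Δ (2.48, 2.12, 1.46 and 1.20 CPM) each overlapped the next. For Lrp2, WT of batch C stood alone at the top (287 CPM), and Tip5Δ, Rsf1Δ, WT of batch E, WT of batch D and Cecr2Δ (96.3 to 64.2 CPM) each overlapped the next. For Dab2, the groups followed one another without overlap from WT of batch A (101 CPM) down to BptfΔ (1.0 CPM), except for Tip5Δ and WT of batch D (25.7 and 23.9 CPM), and WT of batch C (41.9 CPM) lay below Acf1Δ, WstfΔ and Rsf1Δ.

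Of the carriers, only Apoe and Apob gave enough counts for the fit. Apoe, which delivers lipoprotein lipids to LDL receptor family members, had 4452 to 14847 counts in every library. In batch C, Apoe was at 269 and 259.7 CPM in WT and at 387 and 402 CPM in BptfΔ, a log2 fold change of 0.58 ± 0.071 with no overlap. It was thus above WT in the same libraries that held the lowest levels of Cubn, Amn, Lrp2 and Dab2. In batch A, Apoe was at 304 and 286 CPM in WT, at 214 and 194 CPM in Rsf1Δ (−0.53 ± 0.070) and at 356 and 345 CPM in WstfΔ (0.25 ± 0.070). Rsf1Δ lay below and WstfΔ above both WT libraries, and Rsf1Δ also lay below all 11 WT libraries. Acf1Δ libraries held 332 and 361 CPM of Apoe against 530.2 and 549.6 CPM in WT, a log2 fold change of −0.64 ± 0.070 with no overlap. Apoe overlapped WT in Tip5Δ (512 and 533 CPM against 525 and 532 CPM) and in the Cecr2Δ-labelled libraries (303, 286 and 258 CPM against 304, 283 and 321 CPM).

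Apob, the structural protein of the lipoproteins that visceral endoderm exports, was low, with 22 to 78 counts per library. It was at 1.42 and 1.61 CPM in WT cells of batch B and at 2.45 and 3.24 CPM in Tip5Δ, above both WT libraries (log2 fold change 0.91 ± 0.25). BptfΔ libraries held 1.98 and 1.85 CPM of Apob against 2.73 and 3.38 CPM in WT, below both WT libraries (−0.67 ± 0.27). In the other 4 lines Apob overlapped its WT libraries, with log2 fold changes of 0.03 to 0.24.

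Ttr, Afp and Apoa1, which are among the most abundant transcripts of visceral endoderm in the embryo, were close to the detection limit. Ttr had 0 to 7 counts per library and was at 0 in 12 of the 24 libraries, among them both BptfΔ libraries and all 6 libraries of batch D; its highest count, 7, was in a WT library of batch B, and the other WT library of batch B and WT replicate 1 of batch A had 5. Afp had 0 to 6 counts and was at 0 in 11 libraries, among them both WstfΔ, both Tip5Δ and the 3 libraries labelled Cecr2Δ. Apoa1 had 0 to 9 counts and was at 0 in 3 libraries, with the highest count in Acf1Δ replicate 2. Over all 24 libraries the counts summed to 33 for Ttr, 41 for Afp and 69 for Apoa1, against 1004 for Apob and 213854 for Apoe. A limit of 3 counts corresponds to 0.0837 to 0.219 CPM, depending on the library, and covers counting error only. These 3 genes did not pass the filter on low counts and were not tested, so that no difference between groups is stated to be present or absent. Gm16090 overlaps Ttr, and the sources used here do not state whether strand was used in counting, so that reads of the 2 genes could not be told apart.

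**Figure D3:**
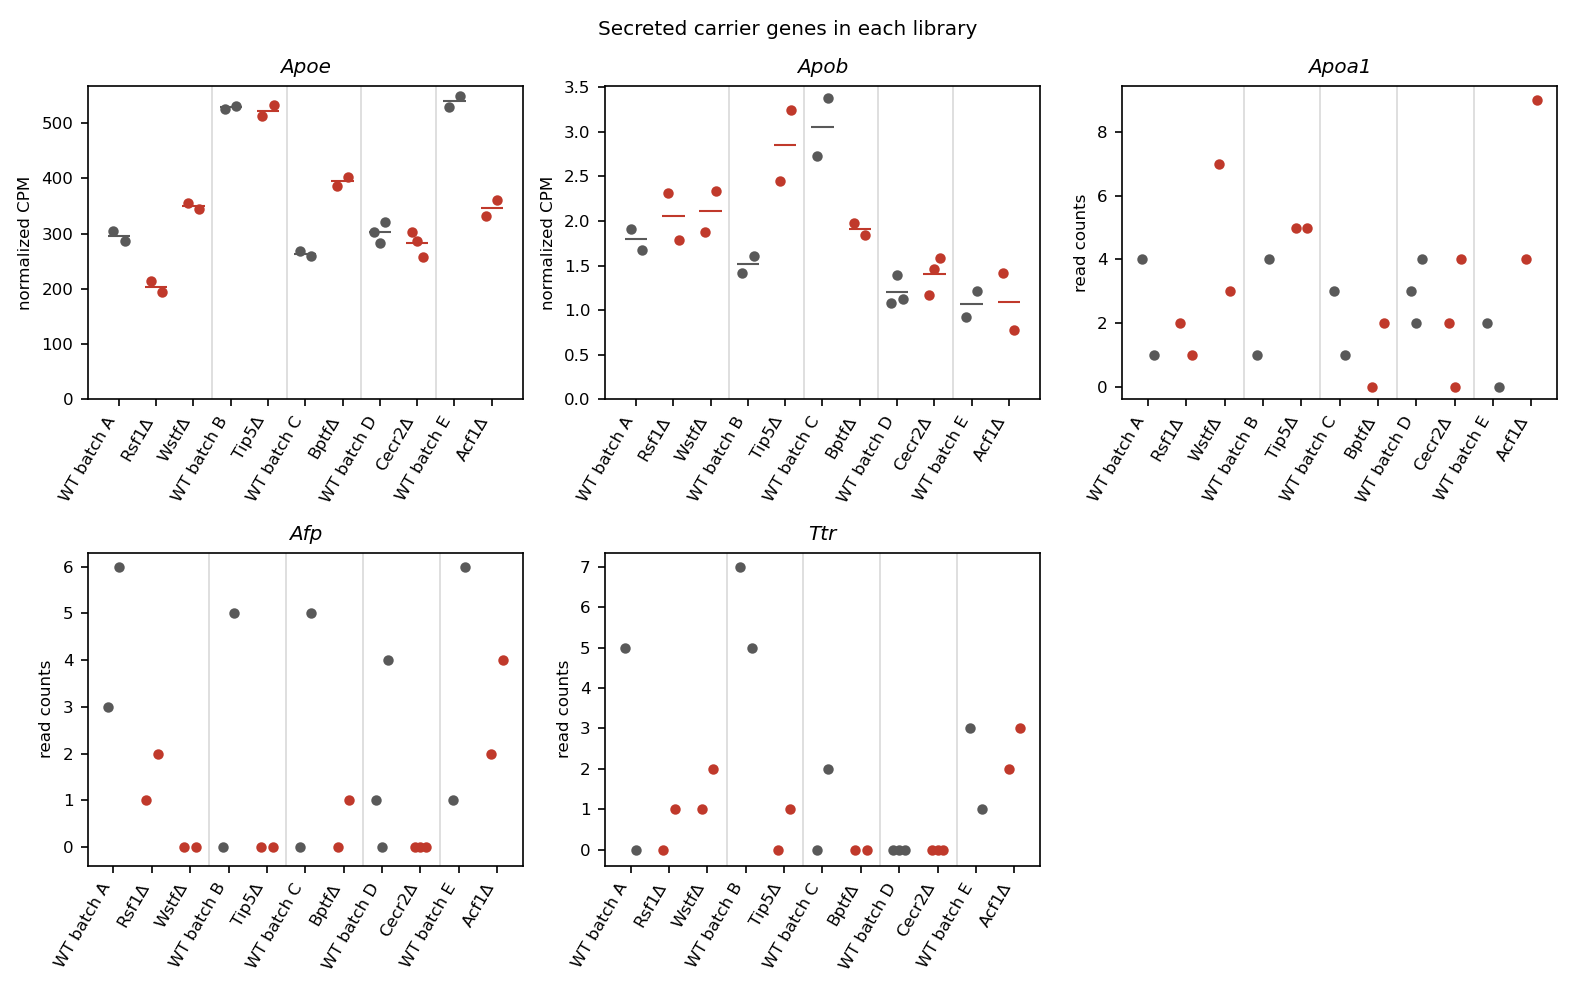
Normalized CPM of Apoe and Apob, and read counts of Apoa1, Afp and Ttr, in each of the 24 libraries (WT grey, deletion lines red, group means as bars for Apoe and Apob only). Apoe exceeds 190 CPM in every library, whereas Ttr, Afp and Apoa1 stay at or below 9 counts.

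The endocytosis genes varied together across libraries. As Pearson correlations of log2(CPM + 0.5) minus the mean of the WT libraries of the batch, over 24 libraries, Cubn and Dab2 gave 0.986, Cubn and Lrp2 0.949, Lrp2 and Dab2 0.944, Cubn and Amn 0.865, Amn and Dab2 0.834, and Amn and Lrp2 0.701. Without the 2 BptfΔ libraries, Cubn and Dab2 remained at 0.923 and Cubn and Amn at 0.907, while the 3 pairs with Lrp2 were at 0.416 to 0.669. Apoe and Apob gave −0.347 over 24 libraries and 0.0399 without BptfΔ. Apob gave 0.332 with Cubn, −0.00233 with Amn, 0.475 with Lrp2 and 0.300 with Dab2 over 24 libraries, and −0.654, −0.626, −0.350 and −0.711 without BptfΔ. Apoe gave −0.524, −0.259, −0.619 and −0.500 with the same 4 genes over 24 libraries, and 0.0979, 0.209, −0.156 and 0.154 without BptfΔ. These libraries share WT libraries and batches, and the correlations are descriptions without a test.

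**Figure D4:**
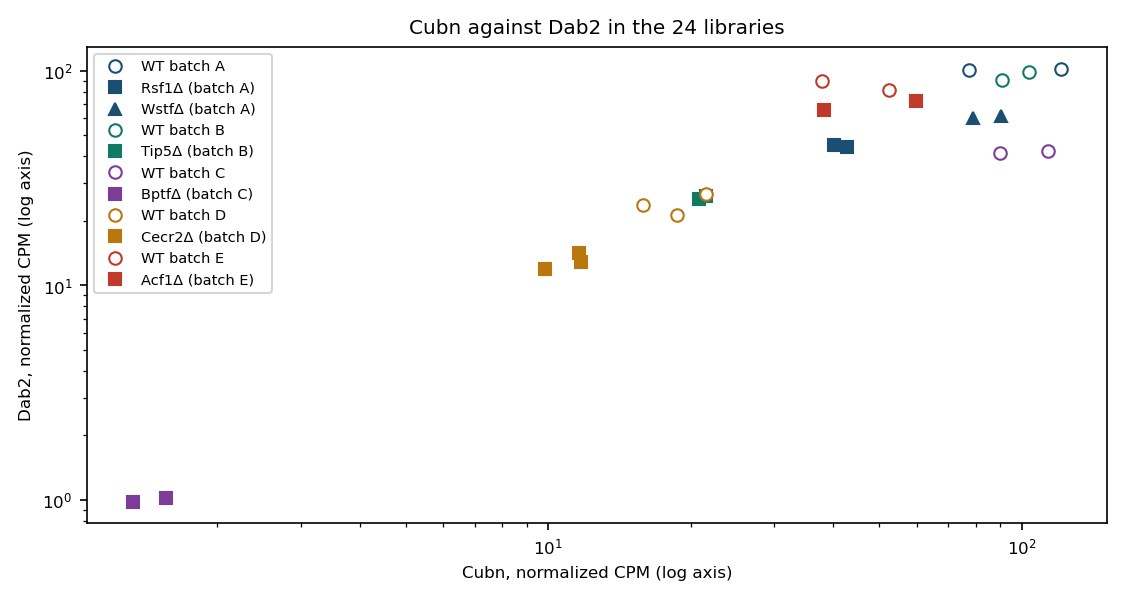
Cubn against Dab2 in normalized CPM (both axes logarithmic), 1 point for each of the 24 libraries, with WT libraries as open circles and colours for batches. The BptfΔ libraries sit near 1 CPM on both axes, and the Cecr2Δ-labelled libraries sit below the WT libraries of batch D on both.

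Cubn and Lrp2 differed in the same direction between replicates of several groups. Both have long mRNAs (14935 and 16701 bases of annotated exons, against 7342 for Dab2 and 1843 for Amn). Between the WT replicates of batch A, replicate 2 was higher by 0.64 for Cubn and 0.79 for Lrp2 on the log2 scale, and by 0.03 for Dab2. Between the Acf1Δ replicates, replicate 2 was lower by 0.64 for Cubn, 0.54 for Lrp2 and 0.59 for Apob, which also has a long mRNA (13934 bases). The median over the 1104 genes of at least 10000 bases was 0.09 between these WT replicates and −0.26 between these Acf1Δ replicates, where the median over all 14510 genes with a mean of at least 10 counts was −0.01 in both. Apob, at −0.15, did not follow Cubn and Lrp2 between the WT replicates of batch A. Between the WT replicates of batch E, Amn, with its short mRNA, differed more (0.71) than Cubn (0.47) and Lrp2 (0.50), with a long-gene median of 0.09. For the lines over their WT, the median of the long genes was −0.21 in Acf1Δ, −0.08 in Rsf1Δ, and between −0.03 and 0.06 in the other 4 lines. The part of transcript length in the values of Cubn and Lrp2 was not tested.

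The partners of the members in endocytosis and secretion were called in both directions. Of 70 companion genes, 52 passed the filter on low counts. Their calls numbered 3 lower and 0 higher in Rsf1Δ, 1 lower and 0 higher in Tip5Δ, 0 lower and 1 higher in the Cecr2Δ-labelled libraries, 0 lower and 1 higher in Acf1Δ, 4 lower and 7 higher in WstfΔ, and 5 lower and 4 higher in BptfΔ. Counting both directions, 5.77% of the tested companions were called in Rsf1Δ and 1.92% each in Tip5Δ, Acf1Δ and the Cecr2Δ-labelled libraries. The share was 21.2% in WstfΔ and 17.3% in BptfΔ. The shares of all tested genes are given by direction, and their sum is the matching background. Lower and higher calls made up 5.26% and 0.65% in Rsf1Δ, 2.63% and 0.0829% in Tip5Δ, and 3.32% and 1.14% in Acf1Δ. They made up 2.33% and 0.784% in the Cecr2Δ-labelled libraries, 6.57% and 3.87% in WstfΔ, and 8.59% and 5.25% in BptfΔ. Differences between companions and background were not tested. The single calls in Tip5Δ and in the Cecr2Δ-labelled libraries were lost under several alternative settings.

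Among 28 endocytosis partners, 3 were called in Rsf1Δ, 5 in WstfΔ, 2 in BptfΔ and none in the other 3 lines. Median log2 fold changes lay between −0.07 and 0.14 in the 6 lines. Lrpap1, the chaperone that escorts LRP2 and its relatives through the secretory pathway, was at 127 and 119 CPM in WstfΔ against 280.2 and 283 CPM in WT and was called lower (−1.19 ± 0.052, adjusted P = 3.91e-16, edgeR quasi-likelihood test). It was also below WT without reaching the 1-unit threshold in Rsf1Δ (−0.84 ± 0.051), Tip5Δ (−0.79 ± 0.051), BptfΔ (−0.73 ± 0.052) and the Cecr2Δ-labelled libraries (−0.58 ± 0.042), and above WT in Acf1Δ (0.32 ± 0.050). Lrp1, another large receptor of the LDL receptor family, was at 172 and 174 CPM in WstfΔ against 25.7 and 36.3 CPM in WT (2.49 ± 0.16, adjusted P = 1.09e-12, edgeR) and at 98.2 and 95.7 CPM in BptfΔ against 37.8 and 39.6 CPM (1.33 ± 0.16, adjusted P = 1.03e-07, edgeR). Lrp1 was thus higher in BptfΔ while Lrp2 was lower. Clcn5, a chloride–proton exchanger of endosomes, was called lower in Rsf1Δ (−1.13 ± 0.090), WstfΔ (−1.23 ± 0.094) and BptfΔ (−1.81 ± 0.10). Lrp8, a receptor for reelin and Apoe, and Myo6, a motor of endocytic vesicles, were called lower in Rsf1Δ (−1.15 and −1.01). The 3 companion calls in Rsf1Δ were 2 with RLE size factors, with DESeq2 and without Rsf1Δ replicate 1. Gipc1, an adaptor for receptor tails, and Fcho1, an initiator of clathrin pits, were called higher in WstfΔ (1.10 and 1.02).

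Of 15 tested genes of lipoprotein assembly, 1 was called higher and 1 lower in WstfΔ and in BptfΔ, and none in the other 4 lines. Of 9 other tested plasma proteins, 1 was called lower in Tip5Δ, 1 higher in the Cecr2Δ-labelled libraries, 1 higher in Acf1Δ, 3 higher and 1 lower in WstfΔ, and 2 higher and 3 lower in BptfΔ. Mttp, which loads lipid onto APOB, was at 4.31 and 4.04 CPM in BptfΔ against 10.4 and 10.3 CPM in WT (−1.31 ± 0.15, adjusted P = 2.53e-08, edgeR quasi-likelihood test). Abca1, the cholesterol exporter that lipidates APOA1 and APOE, was higher in BptfΔ (93.2 and 86.0 CPM against 26.3 and 29.9 CPM, 1.68 ± 0.13) and in WstfΔ (1.05 ± 0.14). Lcat, which esterifies cholesterol on lipoproteins, was lower in WstfΔ (−1.66 ± 0.27). Fgg, a fibrinogen chain, was called higher in the Cecr2Δ-labelled libraries (1.09, a call not made with DESeq2) and WstfΔ (1.39) and lower in BptfΔ (−2.61). Cpn1, a subunit of carboxypeptidase N, was called higher in WstfΔ (1.05) and lower in BptfΔ (−1.75), and Ahsg (fetuin-A) higher in BptfΔ (1.22). Trf (transferrin) was higher in WstfΔ (1.35 ± 0.14) and BptfΔ (1.33 ± 0.12). Spink1, a secreted protease inhibitor, was higher in Acf1Δ (1.75 ± 0.14) and lower in WstfΔ (−1.78 ± 0.17), BptfΔ (−1.68 ± 0.16) and Tip5Δ (−1.0 ± 0.16). The Tip5Δ call of Spink1 was lost with RLE size factors, no filter, the newer quasi-likelihood form and DESeq2. Rbp4, the retinol carrier that TTR binds in plasma, was at 0.840 to 3.48 CPM and was called in no line. Of the 21 plasma proteins, 9 to 11 had at most 3 counts in each library of a line and its WT, among them Alb, Afm, Serpina1a, Serpina1b, Ambp, Itih2 and Plg in each of the 6 comparisons.

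The endocytosis genes were set beside marker lists of the cell types such cultures can hold. These lists were chosen with earlier results of these data known, so that their counts are descriptions. Over all tested genes, 5.26% were called lower in Rsf1Δ, 2.63% in Tip5Δ and 2.33% in the Cecr2Δ-labelled libraries. The corresponding share was 3.32% in Acf1Δ, 6.57% in WstfΔ and 8.59% in BptfΔ. Of 16 tested regulators of visceral and primitive endoderm, 10 were called lower in Rsf1Δ, 10 in Tip5Δ, 8 in the Cecr2Δ-labelled libraries, none in Acf1Δ, 8 in WstfΔ and 11 in BptfΔ, and none higher in any line. Their median log2 fold changes were −1.20, −2.17, −1.04, 0.12, −1.19 and −2.61 in the same order. Of 8 parietal endoderm markers, 8 were called lower in Rsf1Δ, Tip5Δ, WstfΔ and the Cecr2Δ-labelled libraries, 7 in BptfΔ and none in Acf1Δ. Their medians were −1.87, −2.56, −2.49, −0.03, −2.14 and −2.78 in the order of the regulators. In WstfΔ the endocytosis genes (median −0.48) stood closer to 0 than either list, and in BptfΔ (median −5.21) they stood further from 0 than either, differences that were not tested. Sox17, an endoderm transcription factor, was called lower in Rsf1Δ (−1.36), Tip5Δ (−2.72), the Cecr2Δ-labelled libraries (−2.59), WstfΔ (−2.19) and BptfΔ (−5.75), and Gata6, which specifies primitive endoderm, in the same 5 lines (−1.18, −2.30, −2.39, −1.49 and −3.89).

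**Figure D5:**
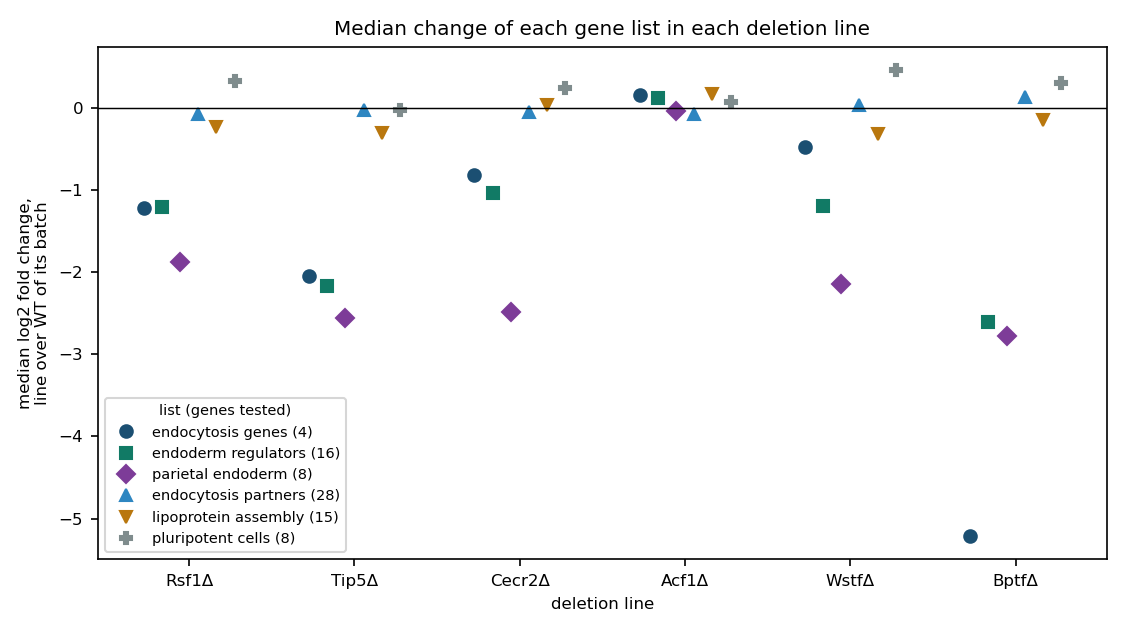
Median log2 fold change over WT of the batch for the 4 endocytosis genes and 5 other lists in each deletion line, over the tested genes of each list. The endocytosis median lies at −5.21 in BptfΔ, where regulators lie at −2.61 and parietal endoderm markers at −2.78, and at −0.48 in WstfΔ, where these lists lie at −1.19 and −2.14.

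The summed CPM of the 17 listed regulators ran from 25.3 to 27.6 in BptfΔ against 145 to 148 in WT, and from 248 to 281 in Acf1Δ against 214 to 215 in WT. For the 4 endocytosis genes the sums were 10.7 and 12.5 CPM in BptfΔ against 399 to 472 CPM in WT. Markers of other cells moved too: of 7 tested trophectoderm markers, 4 were called lower in Rsf1Δ, WstfΔ, BptfΔ and the Cecr2Δ-labelled libraries, 3 in Acf1Δ and none in Tip5Δ, while 1 was called higher in WstfΔ. Of 5 tested fibroblast markers, 3 were called lower in Rsf1Δ, Tip5Δ, Acf1Δ, WstfΔ and BptfΔ and none in the Cecr2Δ-labelled libraries, and Thy1 was called higher in WstfΔ (1.03 ± 0.10) and lower in BptfΔ (−1.48 ± 0.16). Of 8 pluripotency markers, Klf4 was called higher in WstfΔ (1.30 ± 0.089), and Klf4 (1.14 ± 0.089) and Esrrb (1.19 ± 0.062) in BptfΔ. Over all tested genes, the share called lower ran from 2.33% in the Cecr2Δ-labelled libraries to 8.59% in BptfΔ. The share called higher ran from 0.0829% in Tip5Δ to 5.25% in BptfΔ. The part of the share of endoderm-like cells in the levels of the members was not tested.

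The genes most like the 4 endocytosis genes, by correlation with their mean profile over 24 libraries among 14504 genes, were Amot (0.978), Myo7a (0.961), Col6a4 (0.960), Mob3b (0.956) and Gldc (0.951). All 5 were called lower in BptfΔ, by 2.07 to 4.29 on the log2 scale, and Amot also in Rsf1Δ (−1.26 ± 0.12). These genes were selected on a profile that includes the BptfΔ libraries, so that their low values there are partly fixed by the selection. Without BptfΔ (22 libraries), genes among the most alike were Habp2 (0.958), Lifr (0.950), Slc13a5 (0.950) and Ankrd33b (0.944). Habp2 was called lower in Rsf1Δ (−1.68 ± 0.26), Tip5Δ (−2.13 ± 0.24), the Cecr2Δ-labelled libraries (−1.22 ± 0.28) and BptfΔ (−6.16 ± 0.61). The Rsf1Δ, Tip5Δ and Cecr2Δ-labelled libraries were part of the profile that selected it. Its levels in BptfΔ were 0.0599 and 0 CPM, under the limit of 3 counts, against 2.52 and 2.39 CPM in WT. The size of that difference is therefore poorly determined. In the Cecr2Δ-labelled libraries Habp2 was at 0.279 to 0.640 CPM against 0.794 to 1.11 CPM in WT. Gata4, an endoderm transcription factor, ranked 144 over 24 and 153 over 22 libraries. Creb1 (0.888), Gas2l3 (0.878), Sgo2a (0.878), Asap1 (0.867) and Kctd18 (0.858) were most like the mean of Apoe and Apob, without a call in any line. These correlations are descriptions over libraries that share batches.

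No tested neighbour of the endocytosis genes in the genome was called, and neither neighbour of Dab2 was tested. Rsu1 and Trdmt1 flank Cubn at 4.9 and 13 kb, and their log2 fold changes in BptfΔ were −0.54 and −0.05. The Rsu1 difference had an adjusted P of 2.08e-06 (edgeR quasi-likelihood test) without reaching the 1-unit threshold. Traf3 and Cdc42bpb flank Amn at 3.9 and 16.5 kb, with −0.14 and 0.19 in BptfΔ. Bbs5 lies 60.8 kb from Lrp2 and was at −0.27 in BptfΔ, and Dhrs9 on the other side (0 to 3 counts) was not tested. The neighbours of Dab2, C9 (0 to 4 counts) and 5430437J10Rik (0 counts, 704.8 kb away), were not tested either. Beside Apoe, Apoc1 at 3.6 kb was at −0.69 in Rsf1Δ, −0.50 in Acf1Δ and 0.40 in BptfΔ, with the sign that Apoe had there, and at −0.32 in WstfΔ, 0.14 in Tip5Δ and 0.04 in the Cecr2Δ-labelled libraries, with the opposite sign. Tomm40 on the other side was at 0.19 in Rsf1Δ, 0.55 in Acf1Δ and −0.44 in BptfΔ. None of these was called. Apoc3, next to Apoa1, and Alb, next to Afp, had at most 3 counts in any library.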

How the data were processed

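RNA-seq reads of 24 mESC libraries were aligned by the authors with QuasR (spliced alignment, genome mm10) and assigned to UCSC knownGene genes. The deposited values are raw counts, 1 table with the exonic width of each gene (in bases). The labels name a stranded TruSeq mRNA kit and the study's methods another TruSeq RNA kit, and which applies to batch C was not resolved. The submitters' processing notes name bcl2fastq (2.17) and HISAT2. Whether counting used strand or kept multimapping reads is not given in the sources used here.

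Groups and batches came from the labels, and 24570 of 24594 gene IDs matched a RefSeq symbol. Genes were filtered with filterByExpr by genotype (15682 kept, among them 6 of the 9 members), scaled with TMM and fitted as ~batch + genotype over all 24 libraries with the quasi-likelihood F test of edgeR (4.0.16; R 4.3.3), with Benjamini–Hochberg adjustment over all tested genes. A gene was called when it differed by more than 1 on the log2 scale, in either direction, with an adjusted P under 0.01. SE was obtained from the size of the log2 fold change and the root of its F statistic. The fit was tested on simulated data. Replicates are independent samples of 1 clone, so that P values measure the spread within clones. No 2 replicates agreed within sampling noise.

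The members and lists were chosen with earlier results of these data known. Named genes are the members, the deleted genes, the partners Lrpap1, Rbp4 and Mttp, up to 4 called genes with the largest change from each list and line (mean of at least 10 counts), the nearest gene on each side of each member, and the 5 genes most correlated with each group of members (1 of which is not reported here, nor are the promoter motifs searched other than the GATA letters). Fcho1, and Fgg in BptfΔ, were named after their values were seen, and the cut at 10000 bases and the histone genes were also chosen after seeing the data. Same-numbered libraries of a batch did not deviate together (15 pairs, r from −0.267 to 0.106), so that replicate numbers were not treated as pairs. Alternatives were RLE size factors, library size only, no filter, the newer quasi-likelihood form, a fit of each line with its own WT libraries, DESeq2 (1.42.0), a replicate block and leaving out each replicate.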

Additional observations from a re-analysis of the deposited data

Results flagged for a closer look

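Pairs of lines were marked where every library of one line lay above its WT libraries and every library of another lay below. The differences between lines were not tested, and lines of different batches have different WT libraries. Amn in WstfΔ lay above its WT while it lay below in 4 other lines, the log2 fold changes differing by 1.93 from Rsf1Δ, 3.23 from Tip5Δ, 1.68 from the Cecr2Δ-labelled libraries and 4.2 from BptfΔ. Without WstfΔ replicate 2, the Amn difference of WstfΔ over WT was 0.33 in place of 0.62. Apoe in WstfΔ and BptfΔ lay above WT while it lay below in Rsf1Δ and Acf1Δ: WstfΔ differed by 0.78 from Rsf1Δ and by 0.89 from Acf1Δ, and BptfΔ by 1.11 and 1.22 from the same lines. Apob lay above WT in Tip5Δ and below in BptfΔ, with log2 fold changes that differed by 1.58, on 32 to 78 counts per library. No group held more than 3 libraries, so that a single library standing apart from its group was not looked for.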

How the results depend on the processing

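The 4 calls in BptfΔ and the 3 in Tip5Δ were made under every alternative tried. Leaving out each replicate gave 2 to 4 called members in Rsf1Δ, 0 to 1 in the Cecr2Δ-labelled libraries and 0 to 1 in WstfΔ. The companion call in Tip5Δ was lost with RLE size factors, no filter on low counts, the newer quasi-likelihood form and DESeq2 (0 each), and leaving out replicates gave 0 to 1. Companion calls in the Cecr2Δ-labelled libraries numbered 2 with the newer quasi-likelihood form, 0 when fitted without the other batches, 0 with DESeq2 and 0 to 3 without single replicates, and those in Acf1Δ numbered 1 to 2 without single replicates. Those in WstfΔ numbered 8 without WT replicate 1 of batch A and without WstfΔ replicate 1, against 11. The causes were not tested. Signs turned only for differences that were not called. Apoe in Tip5Δ was at 0.00071 without a filter. Without single replicates, log2 fold changes ran from −0.0052 to 0.37 for Apob in Rsf1Δ, from −0.046 to 0.012 for Apoe in Tip5Δ, from −0.52 to 0.13 for Cubn in WstfΔ, and in Acf1Δ from −0.24 to 0.40 for Cubn, −0.15 to 0.64 for Amn and −0.46 to 0.40 for Apob. With the replicate number as a block, all genes called numbered 875 in Rsf1Δ, 385 in Tip5Δ, 451 in the Cecr2Δ-labelled libraries, 641 in Acf1Δ, 1571 in WstfΔ and 2093 in BptfΔ, the members' counts were as without it (4, 3, 1, 0, 0 and 4), and the numbers of batch E crossed gave 681 in Acf1Δ, an alternative added after the data were seen. Depth limits Ttr, Afp and Apoa1, which were not tested.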

Other observations

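Beside Ttr, 2 expressed genes were higher in WstfΔ and BptfΔ, while Ttr itself had at most 2 counts in those libraries. Gm16090, which overlaps Ttr, was called higher in WstfΔ (log2 fold change 1.37, adjusted P = 1.4e-06, edgeR) and in BptfΔ (1.30, adjusted P = 3.15e-05, edgeR). Dsg2, a desmosomal cadherin and the nearest gene on one side (59.7 kb), was called higher in WstfΔ (1.05, adjusted P = 4.73e-11, edgeR) and BptfΔ (1.17, adjusted P = 1.67e-11, edgeR). B4galt6 on the other side was at 0.39 and 0.97 and was not called.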
